A study of Mus musculus with 6 samples.

Results

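H3K27ac was examined at 9 genes of the Nodal and TGF-beta pathway: Nodal, Lefty1, Lefty2, Tdgf1, Acvr2b, Smad2, Smad3, Smad7 and Skil. Peaks were taken if they overlapped the body of the gene (GENCODE vM21, GRCm38) or the 10 kb on either side of it. This rule for peaks uses no measured value beyond the peaks themselves, which the authors called on uninduced cells alone. The 9 genes, however, were chosen with earlier results of these data known. It found 24 of the 31131 peaks, at 8 of the 9 genes. Lefty1 had none. The series holds chromatin immunoprecipitation sequencing (ChIP-seq) of H3K27ac in O4AID ESCs, with 3 independent immunoprecipitations (IPs) from uninduced cells and 3 from cells given the auxin IAA (indole-3-acetic acid) at 500 μM for 1.5 h. These mouse embryonic stem cells (ESCs) have the strain label 129SV and, in both conditions, a genotype made of Oct4-/-, a TetOFF Oct4 transgene, and transgenes for Oct4AID and Tir1 that are both under CAG. The endogenous Oct4 is thus deleted, doxycycline silences a wild-type Oct4 transgene, and the OCT4 that remains is driven by the ubiquitous CAG promoter and carries an auxin-inducible degron. TIR1, the plant F-box protein that marks the degron for destruction when IAA is present, comes from another CAG transgene. Cells of both conditions grew in N2B27 with the MEK inhibitor PD03, the GSK3 inhibitor Chiron and LIF, and IAA in cells without the OCT4 degron was not analysed here. As peaks came from uninduced cells alone, a site with H3K27ac only after IAA could have no peak. This choice of peaks also favours lower over higher values after IAA, at these peaks and at all others, most where reads are few.

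Nodal is a secreted ligand of the TGF-beta family that binds activin receptors together with the co-receptor Cripto, the product of Tdgf1. The receptors phosphorylate SMAD2 and SMAD3, which enter the nucleus with SMAD4 and act at DNA through partners such as FOXH1, and the secreted Lefty proteins, the inhibitory SMAD7 and the co-repressor SnoN (Skil) hold the signal back. Pluripotent cells express many parts of this pathway, several of its genes are themselves SMAD2/3 targets, and the histone acetylation H3K27ac marks active enhancers and promoters.

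The sequences below are from peaks at Tdgf1, Nodal, Lefty2 and Skil, where letters bound by OCT4 or by the nuclear end of the pathway were looked for on both strands. The motifs were the octamer ATGCAAAT bound by OCT4, the same with an open base (ATGNAAAT), the start of a SOX-OCT element (TTGTNATGC), the FOXH1 motif AATNNACA, the SMAD motif CAGACA and the SMAD palindrome GTCTAGAC. Capitals mark matches, which read in reverse complement where they lie on the minus strand. Tdgf1 is shown because its peak is the only one, of the 6 near a published OCT4 site, with an exact octamer. The others were chosen after the matches were seen: Nodal upstream for a run of letters in which ATGNAAAT and AATNNACA overlap, Nodal intron for its pair of FOXH1 matches, Lefty2 for its many SMAD matches, and Skil for an octamer in a peak with no OCT4 site.
Tdgf1, chr9:110947936-110948055, GRCm38, plus strand: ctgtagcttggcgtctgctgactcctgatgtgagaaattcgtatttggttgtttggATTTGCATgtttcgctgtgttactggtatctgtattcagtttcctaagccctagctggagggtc
Nodal upstream, chr10:61416749-61416868, GRCm38, plus strand: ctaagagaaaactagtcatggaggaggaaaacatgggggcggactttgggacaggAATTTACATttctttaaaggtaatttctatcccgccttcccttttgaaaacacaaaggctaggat
Nodal intron, chr10:61419194-61419326, GRCm38, plus strand: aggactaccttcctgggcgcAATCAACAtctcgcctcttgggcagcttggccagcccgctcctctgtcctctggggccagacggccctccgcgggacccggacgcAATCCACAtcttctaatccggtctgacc
Lefty2 upstream, first stretch, chr1:180888810-180889003, GRCm38, plus strand: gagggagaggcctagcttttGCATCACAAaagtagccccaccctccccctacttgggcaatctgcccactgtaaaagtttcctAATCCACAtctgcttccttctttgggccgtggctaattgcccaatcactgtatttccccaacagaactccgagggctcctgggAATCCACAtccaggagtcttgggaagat
Lefty2 upstream, second stretch, chr1:180889115-180889346, GRCm38, plus strand: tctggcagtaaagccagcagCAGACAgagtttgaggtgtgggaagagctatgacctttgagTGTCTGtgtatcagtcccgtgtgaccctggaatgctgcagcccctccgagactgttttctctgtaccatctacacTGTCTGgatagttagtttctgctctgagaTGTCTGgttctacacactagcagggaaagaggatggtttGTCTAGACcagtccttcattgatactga
Skil intron, chr3:31096080-31096146, GRCm38, plus strand: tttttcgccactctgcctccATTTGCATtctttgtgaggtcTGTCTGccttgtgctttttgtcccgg

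A match is a run of letters and not a measured binding site. The octamer was found in 3 of the 24 peaks (1 of the 6 near an OCT4 site), beside 3.01% of all peaks tested, 6.44% of those near an OCT4 site and 2.28% of the others. ATGNAAAT was found in 5 of the 24 peaks (9.9% of all), TTGTNATGC in 1 (1.62%), AATNNACA in 6 (25.8%), CAGACA in 9 (49.8%) and GTCTAGAC in 1 (0.854%). The octamer at Tdgf1 lies in a peak of 464 bases, and 1.76% of 2957 peaks of like length hold an octamer. At Skil, the peak is 812 bases long, and 2.72% of 3420 peaks of like length hold an octamer. The pair of AATNNACA matches in the Nodal intron starts within 100 bases, as in 1.49% of 3426 peaks of like length. The Lefty2 upstream peak has 7 matches to CAGACA (as many or more in 0.937% of 2241 peaks of like length), a GTCTAGAC (1.38%), a TTGTNATGC (3.66%) and a pair of AATNNACA within 100 bases (3.3%). The Nodal upstream peak holds ATGNAAAT (as do 11.6% of 3219 peaks of like length) and AATNNACA (31%), and these matches share letters.

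Each peak has a value in RPKM, which scales its reads to its length and to the depth of the library, and a gene's value is the mean RPKM of its peaks weighted by their length. Values are given below in the order of replicates 1, 2 and 3. Libraries held 31634480 to 39547452 reads, and the 24 peaks 6 to 256 reads per library with a median of 65.5. Peaks took 6.63% to 7.12% of the library reads of uninduced cells and 4.05% to 5.15% of those after IAA, and the median peak lay 0.58 lower after IAA on log2(RPKM). Changes are therefore given as deposited and again relative to each library's median peak. As bulk material was used, less H3K27ac in each cell and H3K27ac in fewer cells cannot be told apart. Peaks were present at the ESC genes Pou5f1, Sox2, Nanog, Klf4, Esrrb and Zfp42, with a mean of 4.32 to 9.78 RPKM in uninduced cells. No peak above the threshold of 0.5 RPKM lay within 10 kb of the trophoblast gene Cdx2 or the endoderm genes Gata4 and Sox17, and Hand1, Gata6, Pax6 and Sox1 had 1.48 to 1.86 RPKM.

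As deposited, H3K27ac was lower after addition of IAA at 19 of the 24 peaks and higher at 0 (limma, Benjamini-Hochberg adjusted p under 0.05), beside 68.2% of the 26457 peaks tested that were called lower. Every IAA library lay below every uninduced library at 18 of the 24, beside 71.2% of all peaks. The median change at the 24 peaks was -0.56 on log2(RPKM + 0.1), next to -0.55 over all peaks, so that as a group they fell about as far as the median peak. Without uninduced replicate 1, limma called 11 of the 24 lower, and the share of all peaks in that fit is not given here. Relative to the median peak, 1 peak was lower (Tdgf1) and 0 higher, beside 1.97% called lower of all peaks, and the change was below 0 at 12 peaks and at or above 0 at 12. Of the genes, 7 of 8 were lower as deposited, beside 86.4% of the 13092 protein-coding genes tested, and 7 of 8 had every IAA library below every uninduced one, beside 82.7%. Relative to the median peak, 1 of the 8 genes was lower (Tdgf1) and 0 higher, beside 0.833% called lower of all genes. The exact permutation test has 0.1 as its smallest p here, and it gave 0.1 at each of these 7 genes and 1 at Smad2.

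**Figure D1:**
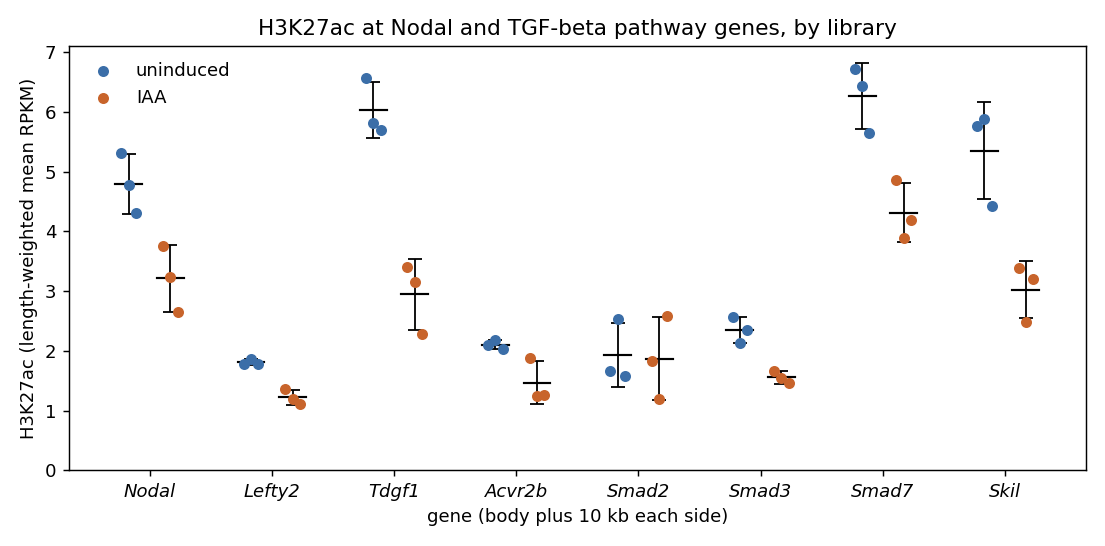
H3K27ac of each gene as the length-weighted mean RPKM of its peaks (y axis) in the 3 uninduced and 3 IAA libraries. Points are libraries, horizontal lines means and bars SD. All IAA points lie below all uninduced points at every gene but Smad2. The fall at Tdgf1 was called beyond that of the median peak, and relative to that peak the means of Lefty2, Acvr2b and Smad7 lie 0.01 to 0.04 above 0 on the log2 scale. The median of all genes tested also lies 0.04 above 0 on that scale.

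Tdgf1, the gene of the co-receptor Cripto (chr9:110939603-110946158, minus strand), had 5 peaks, and H3K27ac fell at all of them. The gene's value was 6.57, 5.82 and 5.7 RPKM before and 3.4, 3.16 and 2.28 after addition of IAA. The lowest uninduced library was thus well above the highest IAA library, and the mean went from 6.03 ± 0.471 to 2.95 ± 0.591 RPKM (SD, n = 3). This was a log2 change of -1.05 (SE 0.156, limma adjusted p = 1.18e-06), a level of 48.2% of uninduced cells. Only 1.38% of all genes had a change as low or lower. Relative to the median peak the change was -0.47 (SE 0.0833, limma adjusted p = 0.0392). That call was lost in 4 of the 6 fits that each left out a library, those without uninduced replicate 1, 2 or 3 or IAA replicate 1, with a change of -0.52 to -0.39 and an adjusted p of 0.0358 to 0.223 over the 6.

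At Tdgf1 the peak nearest the start, chr9:110946446-110947264, is intergenic, with its centre at -697 bases from the start, and lies within 1 kb of an OCT4 site. It read 7.88, 6.8 and 6.73 RPKM in uninduced cells and 3.55, 3.05 and 2.47 after IAA. This was the largest fall of the 24 peaks, with a log2 change of -1.22 (SE 0.162, limma adjusted p = 4.36e-05), and the one peak of the 24 called relative to the median peak (-0.67, SE 0.0976, limma adjusted p = 0.00402). The call relative to the median peak was lost without uninduced replicate 1, and the adjusted p was 0.00434 to 0.052 over the 6 such fits. None of the 6 motifs was found in this peak, and its middle 200 bases are given because its fall was the largest.
Tdgf1 peak centre, chr9:110946756-110946955, GRCm38, plus strand: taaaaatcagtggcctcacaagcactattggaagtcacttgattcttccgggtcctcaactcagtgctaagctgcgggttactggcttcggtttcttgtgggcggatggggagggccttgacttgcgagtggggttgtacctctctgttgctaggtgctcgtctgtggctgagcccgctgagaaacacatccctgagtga

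Further upstream of Tdgf1, the peak with the octamer (chr9:110947713-110948177, near an OCT4 site) read 7.36, 5.93 and 6.57 RPKM before and 3.98, 3.17 and 2.86 after IAA. Its log2 change was -0.98 (SE 0.162, limma adjusted p = 2.60e-04), and relative to the median peak -0.42 (adjusted p = 0.0574). The other 3 peaks of the window lie nearer to the start of Lrrc2, the neighbouring gene, than to that of Tdgf1, so their place with Tdgf1 comes from the 10 kb rule. Of these, chr9:110950997-110951496 changed by -0.87 (SE 0.161), chr9:110951855-110952305 in an intron of Lrrc2 by -1.07 (SE 0.265), and chr9:110953739-110954321 over its start, near an OCT4 site, by -0.92 (SE 0.175). All 3 were called lower as deposited (limma adjusted p = 5.79e-04, 0.00384 and 7.33e-04) and none relative to the median peak. The peak in the intron of Lrrc2 spread most after IAA, at 3.45, 2.71 and 1.09 RPKM, with 17 reads in its lowest library. With the 2 peaks nearest Tdgf1 alone, the gene's change was -1.16.

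Nodal, the ligand (chr10:61417972-61425338, plus strand), had 5 peaks that fell about as far as the median peak. The gene's value was 5.31, 4.78 and 4.31 RPKM in uninduced cells and 3.76, 3.23 and 2.65 after IAA, which do not overlap. The mean fell from 4.8 ± 0.503 to 3.21 ± 0.552 RPKM (SD, n = 3), a log2 change of -0.59 (SE 0.155, limma adjusted p = 0.00138). Relative to the median peak the change was -0.01 (SE 0.0769, limma adjusted p = 0.98).

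Among the peaks at Nodal, the largest fall was at chr10:61416329-61417265, the intergenic peak just upstream of the start, which lies near an OCT4 site and holds the overlapping letters of the Nodal upstream sequence. It read 5.75, 5.5 and 4.5 RPKM before and 3.32, 3.41 and 2.44 after IAA. The log2 change was -0.77 (SE 0.169, limma adjusted p = 0.00187), and -0.22 relative to the median peak (adjusted p = 0.422). The other peak near an OCT4 site, chr10:61415512-61415793, read 6.84, 4.95 and 4.5 RPKM before and 5.53, 3.45 and 2.67 after IAA, so that the conditions overlapped, with a change of -0.51 (SE 0.214, limma adjusted p = 0.0401). The highest H3K27ac of all 24 peaks was just inside Nodal, chr10:61418218-61418768, with its nearer end 246 bases from the start and over UTR and coding sequence, at 7.51 ± 0.912 RPKM before and 4.99 ± 0.713 after IAA (-0.58, SE 0.156). The intron peak with the pair of FOXH1 matches, chr10:61418978-61419612, went from 6.1 ± 0.926 to 4.57 ± 1.21 RPKM (-0.43, SE 0.182, limma adjusted p = 0.0428), and its conditions overlapped. Far upstream, chr10:61407753-61408887 went from 2.23 ± 0.224 to 1.56 ± 0.11 RPKM (-0.49, SE 0.184, limma adjusted p = 0.0276). The last of these calls was lost without uninduced replicate 1 or 2 (adjusted p = 0.0751 and 0.124). Those at chr10:61415512 and in the intron were lost without uninduced replicate 1 or 2 or IAA replicate 2 or 3, with an adjusted p of 0.06 to 0.224 at the first and 0.0824 to 0.178 at the other.

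Lefty2, a secreted antagonist of Nodal (chr1:180893108-180899103, plus strand), had low H3K27ac in a pair of peaks. The gene's value was 1.78, 1.87 and 1.78 RPKM in uninduced cells and 1.36, 1.19 and 1.11 after IAA, with no overlap. The change was -0.57 as deposited (SE 0.206, limma adjusted p = 0.0106) and turned to 0.01 relative to the median peak. The upstream peak, chr1:180888096-180889523, near an OCT4 site and with the SMAD and FOXH1 matches shown above, read 1.7, 1.71 and 1.81 RPKM before and 1.21, 0.932 and 0.91 after IAA. It fell by 0.73 on the log2 scale (SE 0.212, limma adjusted p = 0.00856), or by 0.17 relative to the median peak (adjusted p = 0.746). The other peak, downstream of the gene, was not called, at 1.9 ± 0.168 RPKM before and 1.48 ± 0.0971 after IAA (-0.34, SE 0.192, limma adjusted p = 0.116). On the upstream peak alone, Lefty2 changed by -0.78.

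Lefty1, the other Lefty gene (chr1:180935022-180938400, plus strand), had no peak in its window, so no value can be given for it. The nearest peak, chr1:180956053-180956478, lies 17653 bases away, and the coding gene whose start is nearest to it is Tmem63a. With 25 kb on each side, that peak alone would stand for Lefty1, at 2.02 ± 0.0692 RPKM before and 1.46 ± 0.325 after IAA (log2 change -0.50, SE 0.184, limma adjusted p = 0.00941).

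**Figure D2:**
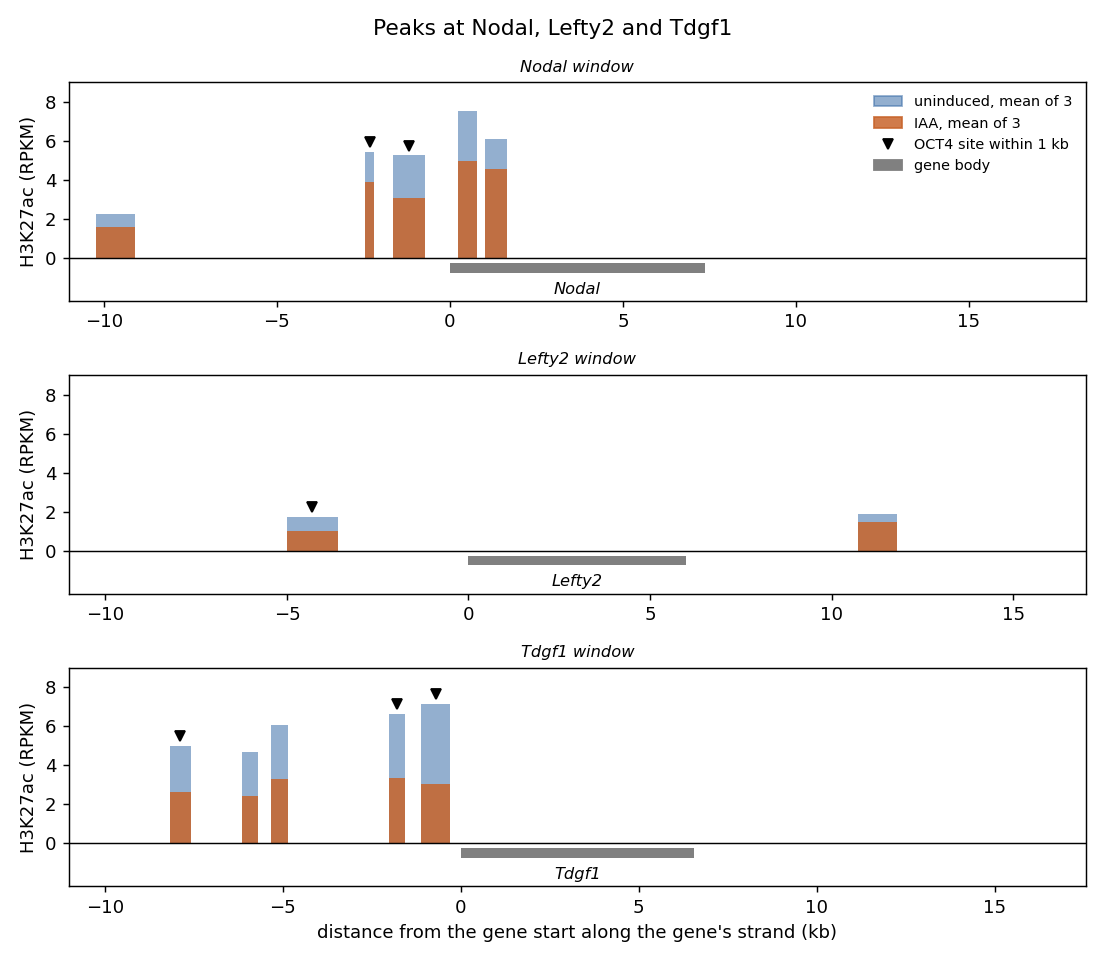
Mean H3K27ac in RPKM (y axis, n = 3) of each peak at Nodal, Lefty2 and Tdgf1 against the distance in kilobases from the start of the gene along its strand (x axis). Blue bars are uninduced and orange bars IAA means, drawn over each other from 0, grey bars are gene bodies, and triangles mark peaks within 1 kb of an OCT4 site. Nodal has peaks on both sides of its start, Tdgf1 has them only upstream, and the IAA bar is the lower one at every peak as deposited, while 1 of these 12 peaks, the one nearest Tdgf1, was called relative to the median peak.

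Acvr2b encodes an activin receptor that binds Nodal (chr9:119402118-119434995, plus strand). Its value was 2.09, 2.18 and 2.03 RPKM in uninduced cells and 1.88, 1.25 and 1.26 after IAA, with IAA replicate 1 close under the uninduced libraries. The log2 change was -0.55 (SE 0.19, limma adjusted p = 0.00882) as deposited and 0.04 relative to the median peak, and without IAA replicate 2 the adjusted p was 0.0518 with a change of -0.45. Its own intron peak, chr9:119402668-119403329, was not called, with 1.73 ± 0.308 RPKM before and 1.29 ± 0.494 after IAA (-0.44, SE 0.247, limma adjusted p = 0.111). Without IAA replicate 1 that peak was called lower (-0.70, adjusted p = 0.018). The peak that was called lies over the start of Exog, a neighbouring gene, at 2.42 ± 0.126 RPKM before and 1.61 ± 0.312 after IAA (-0.57, SE 0.189, limma adjusted p = 0.0154), and lost its call without uninduced replicate 1 or 3 (adjusted p = 0.0568 and 0.0511). On its own peak alone, Acvr2b was not called lower (limma adjusted p = 0.0805).

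Smad2 and Smad3 encode the transducers that the receptors phosphorylate, and their values differed in spread. Smad3 (chr9:63646767-63757994, minus strand) read 2.57, 2.13 and 2.35 RPKM in uninduced cells and 1.66, 1.54 and 1.46 after IAA, with no overlap, a change of -0.60 (SE 0.175, limma adjusted p = 0.00295) or -0.01 relative to the median peak. Its largest fall was at the intergenic peak chr9:63758392-63758823 with its centre at -614 bases from the start and no OCT4 site within 1 kb, which read 2.52, 2.13 and 2.16 RPKM before and 0.884, 1.09 and 1.14 after IAA. Here the log2 change was -1.06 (SE 0.203, limma adjusted p = 7.52e-04) and -0.51 relative to the median peak (adjusted p = 0.241), with 13 to 43 reads per library. The peak over the start, chr9:63757143-63758147, changed by -0.57 (SE 0.197, limma adjusted p = 0.0188), and the intron peaks chr9:63742251-63742845 and chr9:63687297-63687683 by -0.39 (SE 0.17, adjusted p = 0.0473) and -0.43 (SE 0.228, adjusted p = 0.0958). The call of the peak over the start was lost without uninduced replicate 1 or IAA replicate 2 (adjusted p = 0.0997 and 0.0624). That of chr9:63742251 was lost without any of the uninduced replicates or IAA replicate 2 or 3 (adjusted p 0.0601 to 0.209).

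Smad2 (chr18:76241580-76310963, plus strand) was the gene of the 8 that was not called lower. Its value was 1.67, 2.54 and 1.57 RPKM in uninduced cells and 1.83, 1.19 and 2.58 after IAA, and the conditions overlapped. The change was -0.08 (SE 0.237, limma adjusted p = 0.738), and 0.50 relative to the median peak (SE 0.306, limma adjusted p = 0.536). Both of its peaks are short and shallow. The peak over the start, chr18:76241375-76241651, held 6 to 42 reads and read 1.74, 3.32 and 1.68 RPKM before and 2.55, 0.602 and 4.39 after IAA, and its change of -0.14 had an SE of 0.612. Without IAA replicate 2 that peak was called higher as deposited (0.62, limma adjusted p = 0.0491), and the peak chr18:76313626-76313910 beyond the 3′ end was called lower (-0.69, adjusted p = 0.0272) rather than not called (-0.42, SE 0.244, adjusted p = 0.125, 8 to 18 reads).

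Smad7 and Skil, whose products restrain the pathway, were among the more acetylated of these genes. Smad7 (chr18:75367529-75395935, plus strand) read 6.72, 6.43 and 5.65 RPKM in uninduced cells and 4.86, 3.89 and 4.19 after IAA, with no overlap. Its change was -0.54 as deposited (SE 0.15, limma adjusted p = 0.002) and 0.04 relative to the median peak (adjusted p = 0.877), and the former equals the median over all genes tested. The 3 peaks of Smad7 changed alike, by -0.54 at chr18:75366331-75367153 upstream (adjusted p = 0.00858), -0.53 at chr18:75368850-75369261 (0.00739) and -0.51 at chr18:75370023-75370423 (0.0296). The first of these calls was lost without uninduced replicate 1 (adjusted p = 0.0701), and the last without uninduced replicate 1 or 2 or IAA replicate 3 (0.0507 to 0.152). Skil (chr3:31095058-31122577, plus strand) had a single peak, chr3:31095325-31096137, in an intron with its centre 673 bases inside the gene, at 5.76, 5.88 and 4.42 RPKM before and 3.39, 2.49 and 3.2 after IAA. All IAA libraries lay below all uninduced ones, and the gene's log2 change was -0.82 (SE 0.156, limma adjusted p = 6.22e-05), while relative to the median peak it was -0.24 (SE 0.143, limma adjusted p = 0.524).

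**Figure D3:**
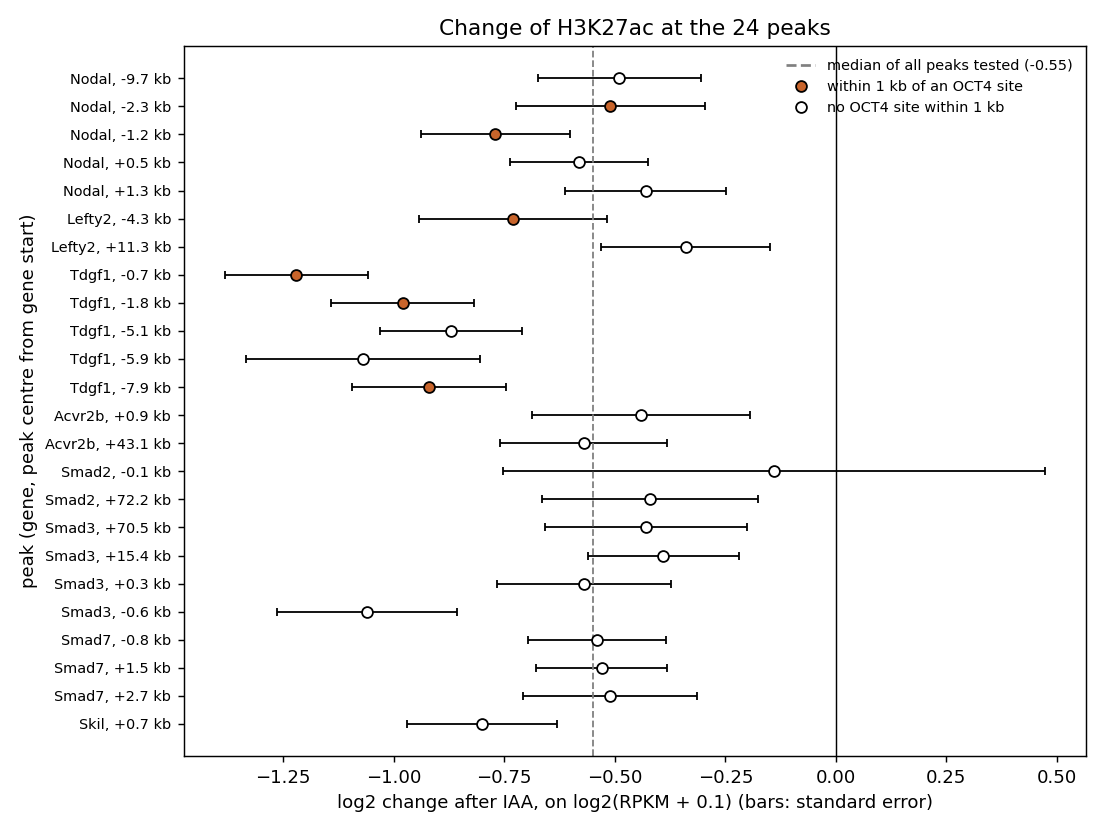
Log2 change after IAA (x axis, on log2(RPKM + 0.1), bars are standard errors) of each of the 24 peaks, named by gene and by the distance in kilobases of the peak centre from the gene's start. Filled points lie within 1 kb of an OCT4 site, and the dashed line is the median of all peaks tested, -0.55. All 5 peaks at Tdgf1 and 1 peak at Smad3 lie furthest to the left, most others lie near the line, and the peak over the start of Smad2 has the widest bar.

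In uninduced cells, Smad7 (6.26 ± 0.555 RPKM, SD, n = 3), Tdgf1 (6.03 ± 0.471), Skil (5.35 ± 0.81) and Nodal (4.8 ± 0.503) formed a higher set. Below them came Smad3 (2.35 ± 0.216), Acvr2b (2.1 ± 0.0736), Smad2 (1.93 ± 0.534) and Lefty2 (1.81 ± 0.0517). RPKM is per length of peak, so these levels can be set side by side, and neighbours within each set differed by less than the sum of their SDs, whereas the sets did not overlap in any uninduced library. After IAA the mean of Tdgf1, 2.95 ± 0.591 RPKM, lay below those of Smad7 (4.31 ± 0.501) and Nodal (3.21 ± 0.552) and beside that of Skil (3.03 ± 0.474). The 24 peaks had a median of 4.61 RPKM in uninduced cells, beside 2.44 over all peaks tested.

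A published OCT4 site lay within 1 kb of 6 of the 24 peaks (25%), at Nodal, Lefty2 and Tdgf1 alone, beside 17.6% of all peaks tested. These 6 peaks were all called lower as deposited, beside 85.2% of all peaks near an OCT4 site, with a median change of -0.84 and a range of -1.22 to -0.51, next to a median of -0.71 over the 4662 such peaks of the series. The 18 peaks with no OCT4 site had a median of -0.52 and a range of -1.07 to -0.14, next to -0.52 over 21795, and 13 of them were called lower, beside 64.6% of all such peaks. Within a gene, peaks near an OCT4 site changed by -0.78 and the other by -0.36 at Lefty2, and the difference between them in each library did not overlap between conditions. At Nodal the changes were -0.72 and -0.51 and at Tdgf1 -1.10 and -0.95, and there the differences overlapped. Peaks within 1 kb of any annotated transcription start had a median of -0.57 at these genes (17 peaks, -0.53 over all such peaks) and the 7 distal peaks one of -0.49 (-0.58 over all). These classes are described only, since peaks of a gene share libraries and are not replicates.

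Genes were also set against Smad2 within each library, which cancels any factor that all peaks of a library share. The difference on the log2 scale changed after IAA by -0.97 at Tdgf1, -0.74 at Skil, -0.51 at Nodal, -0.49 at Lefty2 and -0.46 at Smad7. In the exact permutation test (two-sided, n = 3 against 3, smallest p 0.1) p was 0.2, 0.1, 0.4, 0.3 and 0.3 in that order. Adjusted over the 5 pairs, p was 0.4 at Nodal and 0.375 at the others, and a pair with Lefty1 had no value. Skil was the gene whose difference did not overlap between conditions, at 1.79, 1.21 and 1.50 before and 0.89, 1.07 and 0.31 after IAA. Since Smad2 is the shallowest of the genes, its spread enters every pair, and these values show neither a difference nor its absence.

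A list of 36 further genes of the pathway placed these in context, and 23 of them had a peak above the threshold in the same window. As deposited, 18 of the 23 were lower and 0 higher, beside the 86.4% called lower of all genes, and 19 had no overlap between conditions, beside 82.7%, with a median change of -0.58 and a lowest of -0.99. The median over the 8 genes described above was -0.58 and that over all 13092 genes -0.54. Relative to the median peak, 0 of the 23 were called in either direction, and 12 had a change below 0. By role, 3 of 4 ligands with peaks were lower, 1 of 1 convertase, 3 of 4 receptors, 4 of 4 transducers, 6 of 7 inhibitors and 1 of 3 targets, and the co-receptor Cfc1 had no peak. Without peaks were also the ligands Gdf1, Inhba and Tgfb2, the convertase Furin, the receptors Acvr1c and Acvr2a, the inhibitors Cer1, Fst and Smurf1, and the targets Eomes, Mixl1 and T. Some peaks of the list lie nearest the start of another gene. The only peak of Tgfb1 is nearest that of B9d2, and the only peak of Tgfb3 that of Ift43. So are 2 of the 3 peaks at Foxh1 and at Zfyve9, 1 of the 3 at Gdf3 and 1 of the 9 at Pcsk6.

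Among these 36, the largest falls were at a further Nodal-related ligand, a proprotein convertase that cleaves Nodal and an activin subunit. Gdf3, the ligand, read 6.77, 5.75 and 5.71 RPKM in uninduced cells and 3.29, 2.94 and 2.91 after IAA, with no overlap. Its change was -0.99 (SE 0.15, limma adjusted p = 1.67e-06), and -0.41 relative to the median peak (adjusted p = 0.0546). Pcsk6, the convertase, fell from 3.39 to 1.74 RPKM (-0.98, SE 0.163, limma adjusted p = 8.73e-06) and Inhbb, the subunit, from 2.02 to 1.19 RPKM (-0.78, SE 0.205, adjusted p = 0.00137). The smallest falls past the threshold were at transducers and their partners, with -0.40 at Zfyve9, which recruits SMADs to the receptor (SE 0.176, limma adjusted p = 0.0332), -0.45 at Trim33, a ubiquitin ligase that binds SMADs (SE 0.159, adjusted p = 0.00924), and -0.48 at Smad4, the shared SMAD (SE 0.172, adjusted p = 0.0103). The genes that were not called lower included Smurf2 (-0.09), Tgfb3 (-0.14) and Tgfbr1 (-0.45).

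**Figure D4:**
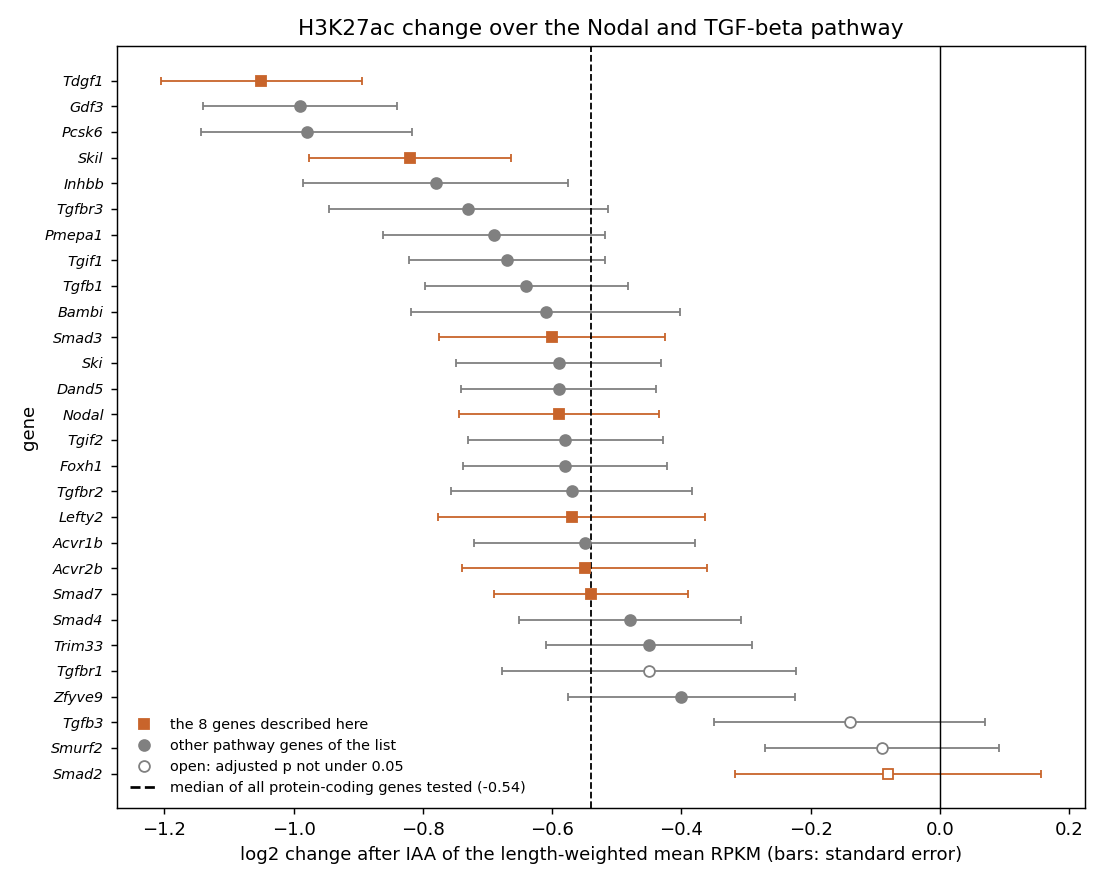
Log2 change after IAA of the length-weighted mean RPKM (x axis, bars are standard errors) of the 8 genes described (orange squares) and the further pathway genes with peaks (grey circles), target genes left out, in order of their change. Open symbols had a limma adjusted p of 0.05 or more, and the dashed line is the median of all protein-coding genes tested, -0.54. Tdgf1, at -1.05, has the lowest value of the genes shown, with Gdf3 and Pcsk6 next to it, and most of the others lie within a standard error of the dashed line.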

How the data were processed

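H3K27ac ChIP-seq of 3 uninduced and 3 IAA libraries was analyzed, with conditions taken from the sample labels. The antibody is ab4729 in the paper and ab4792 in the labels. The authors aligned reads to GRCm38 (Bowtie2 2.3.4.3, per the labels), removed duplicates, called peaks with MACS2 on pooled uninduced IPs, marked peaks within 1 kb of a published OCT4 site, and deposited RPKM values from DiffBind. All RPKM values were whole multiples of 1 read, to within 0.001, from which library sizes followed, and the median peak held 36 to 73 reads. Neither input nor spike-in libraries were used, and 0 columns of values per sample were left unused.

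Peaks with at least 0.5 RPKM in either pooled column (26457 of 31131) were tested on log2(RPKM + 0.1), and genes on log2 of their length-weighted mean RPKM, with limma 3.58.1 in R 4.3.3 (trend and robust) and Benjamini-Hochberg adjustment over all peaks or all genes at 0.05. The pseudocount understates the change of low peaks. Count models were not applied to RPKM. Relative changes were made by subtracting the median peak of each library. That the IPs came from separate cultures is not stated in the sources used here, so p-values measure the spread between IPs. As deposited, all values of a library share its shift. Because limma treats peaks or genes as independent, its p-values as deposited can be too small. The fits were tested on simulated data with independent noise, in which 200 peaks or 200 genes were lowered. Of these, 148 peaks and 179 genes were recovered, with 9 and 17 false calls. No shift shared by a library was simulated, so this does not test the calls as deposited.

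Alternatives were scaling, pseudocount, threshold, window, limma settings, replicate block and leaving out each library. The fits that left out a library on the relative scale were added after seeing the data. The 9 genes, the list of 36 and the tests were chosen with earlier results of these data known. All 9 genes and their peaks are named, with the 3 largest and 3 smallest falls past the threshold in the list of 36, where changes above 0 were also to be named. Some items are not reported here. Other genes, and all sequences but the octamer at Tdgf1, were named after their values or matches were seen. Coordinates are as the authors' files give them, and transcription starts are from GENCODE vM21 on GRCm38.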

Additional observations from a re-analysis of the deposited data

How the results depend on the processing

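Of the 24 peaks, 19 were called lower as deposited, 1 after centring on the median peak, 1 after quantile normalization, 7 of the 10 in gene bodies alone, and 12 at an adjusted p under 0.01. Leaving out each library gave 11 (without uninduced replicate 1) to 20. Of the genes, 7 of 8 were called lower as deposited, 1 after centring, 1 after quantile normalization and 4 of the 6 with a peak in the gene body. On centring, the change turned to 0.01 at Lefty2, 0.04 at Acvr2b, 0.04 at Smad7 and 0.50 at Smad2. The median over all genes tested was 0.04 on this scale, as genes were set against the median peak. At Smad2, leaving out each library gave -0.35 to 0.21, with 0.13 without uninduced replicate 2 and 0.21 without IAA replicate 2. Relative to the median peak, leaving out each library gave 0 to 2 peaks and 0 to 1 gene called lower. Apart from the fits as deposited and centred, the shares over all peaks or genes are not given for these settings. Those counts therefore do not tell these genes from the rest of the series. The cause of these shifts was not tested. Gene bodies alone leave fewer peaks and genes to test, and a stricter p can only lower a count.

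Whether replicate numbers pair the libraries is not known. With each library's median taken out, deviations of same-numbered libraries correlated at -0.014, -0.091 and -0.061. This cannot show a shift shared by whole libraries. The median peak on log2(RPKM) was 1.3302, 1.3117 and 1.2412 in uninduced replicates 1, 2 and 3. After IAA it was 0.8735, 0.7449 and 0.5197, in the same order. With the replicate block, 19 peaks and 7 genes were called lower, and 18898 in place of 18048 of all peaks. The pair differences against Smad2 kept their side of the threshold, which 3 libraries against 3 cannot pass. Of the other values, 97 kept their direction and their call or stayed within the spread, 11 moved, and 6 reversed, as given above. The 6 to 42 reads at the start of Smad2 came with the widest error of the 24 peaks.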
